A study of Mus musculus with 1699 samples.

Results

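Cadherins and non-clustered protocadherins were described across single cells of the mouse ventral midbrain. The members were the protein-coding genes whose symbol is Cdh or Pcdh directly followed by a number, and 35 of the 39468 gene entries met that rule, 23 Cdh genes and 12 Pcdh genes. Cells with GFP fluorescence were sorted from Pitx3eGFP mice, which carry eGFP in the Pitx3 locus (allele Pitx3tm1Mli), and each was sequenced singly with Smart-seq2. Heterozygous Pitx3eGFP/wt cells came from 3 embryonic stages (E13.5, E15.5, E18.5) and 3 postnatal ones (P1, P7, P90). Homozygous Pitx3eGFP/eGFP cells, which lack functional Pitx3, came from E13.5 and P1, so that every sorted cell carries at least 1 eGFP allele. Of 1699 cells, 1511 were kept, 1163 of them Pitx3eGFP/wt, and the median read count of a stage and genotype ran from 753256 to 2354720.

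The labels tie no cell to an animal. A stage and genotype was therefore taken as 1 sample, nothing was tested, and all intervals cover counting error between cells only. Plates were read from the prefixes of the cell titles, and whether each prefix is a separate plate is not stated. A level is the mean RPKM (reads per kilobase of gene and per 1e6 reads of the cell), which allows genes of different length to be compared. A cell was called positive for a gene at an RPKM over 10, and groups were called apart when their levels differed at least 2-fold with a level of at least 1 in the higher group. Intervals of a share are exact Clopper-Pearson intervals at 95%, and those of a difference in shares, given in percentage points, are Newcombe intervals. Where no cell was positive, the share that a count of 0 allows is given instead, taken as 3 cells of the total. At least 3 of 7 neuron markers were over an RPKM of 10 in every kept cell at P90 and in 77 of the kept cells at P7, where 33 cells had at least 3 of 7 astrocyte and radial glia markers, although the labels call every cell a neuron. Comparisons of stages or genotypes at P1 used the 94 Pitx3eGFP/wt cells with spike-in RNA, of which 93 had at least 3 of 8 dopamine neuron markers.

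Classical cadherins are calcium-dependent adhesion proteins. Their outermost domain binds the same domain on a facing cell, and their cytoplasmic tail binds catenins, which link the junction to actin. Type I cadherins dock a single tryptophan into the partner and type II cadherins dock a pair, while Cdh13 (T-cadherin) is held in the membrane by a glycolipid and has no cytoplasmic tail. Delta-protocadherins are weaker adhesion proteins that act in neurite growth and synapse formation, and several of them bind the actin-regulating WAVE complex. In the developing brain, neurons of different nuclei carry different combinations of these genes.

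The start of the mature protein, as placed by the rule given below, shows this division in the second tryptophan. The following coding stretches run 5′ to 3′ from the first codon after the propeptide, were read from GENCODE vM21 transcripts (GRCm38), lie each within 1 exon, and have tryptophan codons among the first 5 codons in capitals. They are shown for a type I member, for type II members whose levels differed between the cell classes described here, and for Cdh13.
Cdh4: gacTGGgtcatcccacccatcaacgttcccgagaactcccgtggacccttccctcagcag
Cdh6: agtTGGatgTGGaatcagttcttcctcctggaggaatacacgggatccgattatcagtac
Cdh10: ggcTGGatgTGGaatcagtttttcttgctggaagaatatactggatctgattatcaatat
Cdh18: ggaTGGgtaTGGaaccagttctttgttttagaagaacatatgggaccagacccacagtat
Cdh7: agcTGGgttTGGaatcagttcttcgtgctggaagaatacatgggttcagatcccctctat
Cdh8: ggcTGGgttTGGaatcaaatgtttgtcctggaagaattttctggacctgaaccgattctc
Cdh13: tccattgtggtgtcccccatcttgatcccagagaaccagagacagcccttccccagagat
The Cdh4 stretch has 1 tryptophan codon, at residue 2, the type II stretches have 2, at residues 2 and 4, and the Cdh13 stretch has none. The mature start was placed after the last furin-type cleavage motif that leaves a tryptophan at residue 2. For Cdh13, where no motif does, it was placed after the last such motif. The tryptophan at residue 2 is thus set by the rule, while that at residue 4 is not. On the plus strand, the stretches lie at chr2:179797560-179797619 for Cdh4, chr15:18899751-18899810 for Cdh10, chr15:23173861-23173920 for Cdh18, chr1:109994321-109994380 for Cdh7 and chr8:118757416-118757475 for Cdh13. On the minus strand, they lie at chr15:13091659-13091718 for Cdh6 and chr8:99400735-99400794 for Cdh8. Cdh9 and Cdh12 also lie on chromosome 15. Over the first 100 residues of the mature protein, Cdh6 and Cdh10 were the most alike pair of the 19 classical and glycolipid-anchored members, with 86% identity. Cdh6 and Cdh9 shared 81%, as did Cdh7 and Cdh20, and Cdh10 and Cdh18 shared 70%.

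The repertoire was broad but uneven. Of the 35 members, 19 reached a mean RPKM of 10 in at least 1 stage, genotype or class, 12 reached between 1 and 10, and 4 stayed below 1 in all of them. Cdh13 had the highest level at every Pitx3eGFP/wt stage except E13.5, where Cdh2 (N-cadherin) had it, and Cdh13 made up 29.5% of the summed RPKM of the members at P90. The 4 members below 1 were Cdh16 and Cdh17, known from kidney and intestine, Cdh19, known from glial lineages, and Pcdh12, known from endothelium. Cdh16 was over an RPKM of 10 in 0 of 1511 cells, which allows a share of up to 0.199%, and Cdh17 in 2. Cdh1 (E-cadherin) was positive in 2 cells and Cdh5 (VE-cadherin) in 6, with their highest levels at P7, 1.15 and 2.77. At P7, 5 cells had at least 3 of 7 endothelial markers, 7 of 7 had a mean RPKM of at least 1, and their summed RPKM ran from 0 to 14098 with a median of 0. The part of these cells in the P7 levels was not tested.

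A cell at E13.5 or E15.5 was positive for a median of 5 members. The median was 8 at E18.5 and P1 and 7 at P7 and P90. After thinning each cell to 100000 reads the medians were the same at all 6 stages.

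Over the stages, Cdh2 had lower levels at each later age while several type II cadherins and delta-2 protocadherins had higher levels at E18.5 than at E13.5 and E15.5. The type II members Cdh6 and Cdh11 did not, with levels at E15.5 (51.4 and 44.8) above those at E18.5 (30.03 and 32.5) and E13.5 (19.9 and 22.8). The mean RPKM of Cdh2 was 101.5 at E13.5, then 86.9 (E15.5), 63.7 (E18.5), 47.5 (all P1 cells) and 42.8 (P7), and 13.99 at P90. Its share of positive cells was 84.9% (77.8 to 90.4%) at E13.5 and 40.3% (34.8 to 45.9%) at P90. The order of its levels was the same within each class described here, with 101.5, 58.2 and 24.7 in Slc6a3-high cells of the early, perinatal and adult stages. Cdh4 (R-cadherin), the other type I member with a high level, stood between 23.1 and 25.9 up to P7, over all P1 cells, and at 4.68 at P90.

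**Figure D1:**
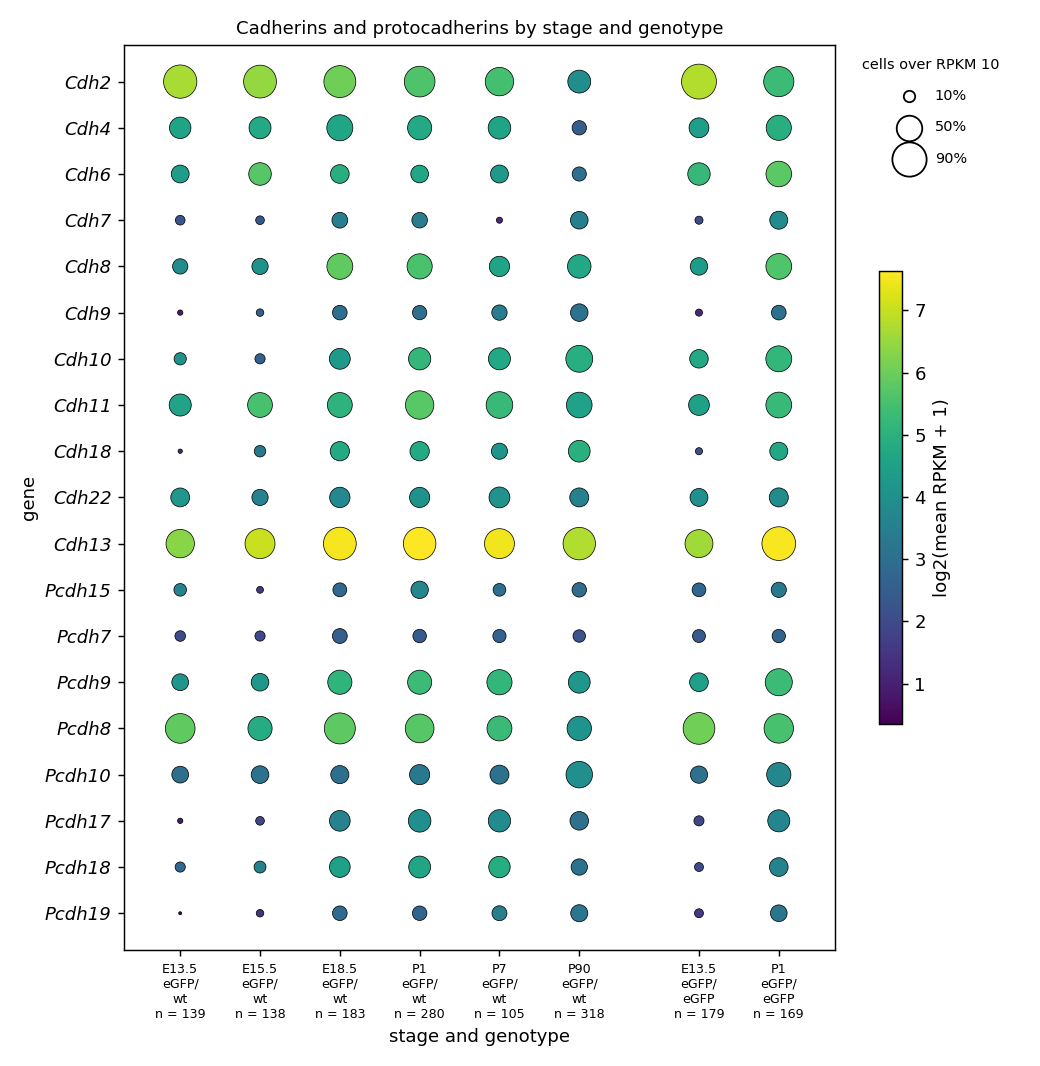
Levels of the 19 members that reached a mean RPKM of 10 in a stage, genotype or class (rows), by stage and genotype (columns, with the number of cells), the Pitx3eGFP/eGFP groups at the right. Colour gives log2 of the mean RPKM plus 1 over cells and dot area the share of cells over an RPKM of 10, and the dot of Cdh2 is smaller at P90 (40.3%) than at E13.5 (84.9%) while that of Cdh18 is larger at P90 (36.2%) than at E13.5 (1.44%).

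Between E13.5 and E18.5, which per the methods were dissociated with the same kit, 11 of 25 members tested were at least 2-fold higher at the later stage, against 18.5% of all genes tested, and 1 was lower, against 13.1%. The median log2 ratio of the members was 0.65, that of all genes tested -0.02. Spike-in RNA was present at E18.5 and not at E13.5, and its part in the levels was not tested. Of the classes described below, E13.5 held fewer Slc6a3-high than Nxph4-high cells, and E18.5 held more. The part of this class make-up in the levels was not tested either. Among type II members, Cdh18 stood at 1.23 at E13.5 and 25.8 at E18.5, with 2 and 52 positive cells, a difference of 26.98 points (19.9 to 33.98). Cdh8 stood at 13.6 and 57.1, with 33.4 points more positive cells (23.2 to 42.4). At E15.5 Cdh18 was in between, at 8.61, and Cdh8 stood at 15.7. Cdh9 (0.825 and 6.77) and Cdh7 (3.80 and 9.76) were also at least 2-fold higher, though without E18.5 plate 1 the log2 ratio of Cdh7 was 0.66. Cdh13 stood at 79.5 and 183.9, with 20.6 points more positive cells (10.8 to 30.2).

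Among delta-2 protocadherins, Pcdh17 stood at 0.803 and 10.8, with 30.6 points more positive cells at E18.5 (23.1 to 37.9). Pcdh18 stood at 5.77 and 22.02, with 24.9 points more (16.3 to 32.8). Pcdh19, a gene known from an X-linked epilepsy, stood at 0.277 and 6.38, with 15.7 points more (9.99 to 21.7). At E15.5 these 3 members stood in between, at 2.70, 10.5 and 1.74. The other higher members had low levels and few positive cells at E18.5, namely Cdh23 (2.42, 11 cells), Pcdh11x (1.83, 10 cells) and the muscle cadherin Cdh15 (2.80, 16 cells). Cdh24 was the member at least 2-fold lower, at 8.04 and 1.94, a difference of -11.1 points (-18.95 to -3.69). Pcdh8, an activity-regulated protocadherin, had nearly the same level at both, 56.98 and 56.04, with 27.6 in between at E15.5. Pcdh9, a delta-1 member, stood at 16.7 and 32.9, and Cdh22 at 17.9 and 12.8, both under 2-fold apart.

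**Figure D2:**
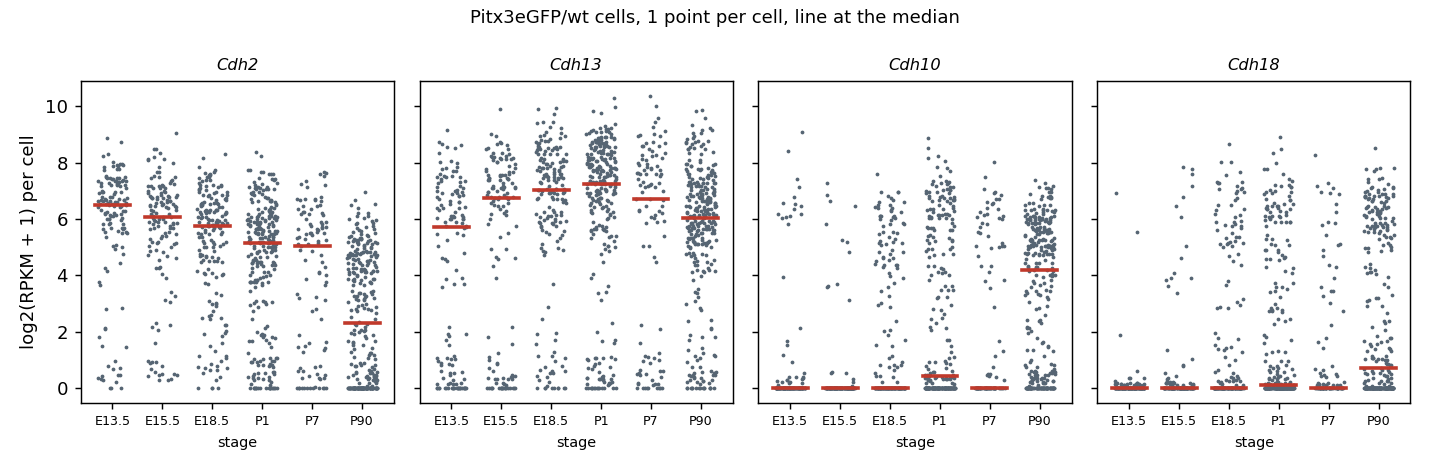
Single Pitx3eGFP/wt cells at 6 stages (x axis) for Cdh2, Cdh13, Cdh10 and Cdh18, as log2 of RPKM plus 1 (y axis), with 1 point per cell and a line at the median. The median RPKM of Cdh2 is 90.3 at E13.5 and 4.00026 at P90, that of Cdh10 is 0 at E13.5 and 17.05 at P90, and that of Cdh18 is at most 0.631 at every stage.

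Between E18.5 and P1 the levels of most members were close. Cdh3 (P-cadherin) of 26 tested was at least 2-fold higher at P1 (5.33% of all genes tested) and none was lower (7.29%), and its level at P1 (1.27) rests on 1 positive cell. The members' median log2 ratio was 0.10, that of all genes -0.05. With all P1 cells in place of the 94, 4 members were at least 2-fold higher, and Cdh3 was not among them. No share of all genes is given for that setting. The added cells, without spike-in RNA, included 29 with at least 3 of 7 astrocyte and radial glia markers over an RPKM of 10. Of the 94 cells, 2 had them. The part of such cells in the count of 4 was not tested. Cdh11 had 69.1% positive cells at P1 and 47.5% at E18.5, a difference of 21.6 points (9.33 to 32.6), with levels of 55.5 and 32.5. Per the methods, the dissociation kit differed between embryonic stages, P1 and P7, and P90, while the labels name 1 kit for all but the adult stage. Kit and age cannot be told apart at P90 against P1, nor here if the methods hold.

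At P90 against P1, 9 of 27 members tested were at least 2-fold lower (17.5% of all genes tested) and 2 were higher (17.8%). The median log2 ratio of the members was -0.66, that of all genes -0.03. Class make-up differed between these stages. Of the 94 P1 cells, 41 had Slc6a3 at or under an RPKM of 150, while P90 held 66 Slc6a3-high cells beside a larger Nxph4-high class. The part of this make-up in the differences was not tested. Of the type I members, Cdh4 stood at 4.68 against 28.3, a difference of -42.8 points (-52.9 to -31.8), and Cdh2 at 13.99 against 47.9, a difference of -40.6 points (-49.1 to -29.98). Pcdh8 stood at 16.4 against 69.02, a difference of -30.998 points (-40.2 to -20.03). These 3 members thus had fewer positive cells at P90 as well as a lower level. Pcdh18 stood at 7.52 against 22.04, Cdh11 at 22.3 against 55.5 and Cdh8 at 25.2 against 57.2. With all P1 cells the log2 ratio of Cdh8 was -0.86, under 2-fold. Cdh6 stood at 6.73 against 29.8, while its share differed by -6.93 points (-16.99 to 1.53). On the mean of log2 RPKM plus 1 the log2 difference of Cdh6 was -0.56, under 2-fold. Cdh3 and Cdh24 were the other lower members, with levels of 1.27 and 2.15 at P1.

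Other members had P90 levels near or above those at P1. Cdh18 stood at 30.3 against 22.2 and Cdh10 at 28.9 against 33.2. Cdh10 had 18.1 points more positive cells (6.62 to 28.7), and Pcdh10, which binds the WAVE complex, had 19.7 points more (8.29 to 30.04), with levels of 14.4 against 10.1. Pcdh11x, at 3.83 against 1.75, and Pcdh20, with 17 positive cells at P90 and 0 of 94 at P1, which allows a share of up to 3.19%, were the members at least 2-fold higher. With all P1 cells the log2 ratio of Pcdh11x was 0.03, and without P90 plate 4 it was 0.87.

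Catenins and WAVE complex genes were measured beside the members. Ctnnb1 (beta-catenin) was under 2-fold apart in these 3 stage comparisons, with levels from 91.02 to 171.1. At P90 against P1, 4 of 11 catenins and adhesion partners were at least 2-fold lower (17.5% of all genes tested) and none was higher (17.8%), namely Ctnna2 (alpha-N-catenin, 19.03 against 86.5), Jup (plakoglobin, 27.4 against 155.6), Ctnnd1 (5.38 against 15.7) and Ctnnd2 (16.3 against 32.9). Of 8 delta-protocadherin partners, Wasf1 (27.97 against 57.4) and Taok2 (11.03 against 23.99) were lower. At E18.5 against E13.5, 3 of 12 adhesion partners (Vcl, Nectin1 and Nectin3) and 1 of 8 protocadherin partners (Nckap1, 33.1 against 15.2) were at least 2-fold higher (18.5% of all genes tested) and none was lower (13.1%). Of 9 atypical cadherins tested, 3 were higher and 2 lower at E18.5 against E13.5 (18.5% and 13.1% of all genes tested). At P1 against E18.5, 0 were higher and 2 lower (5.33% and 7.29%), and at P90 against P1, 1 and 1 (17.8% and 17.5%).

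The cells were then divided by marker genes. Slc6a3 encodes the dopamine transporter, Gad2 an enzyme that makes GABA, and Nxph4 a secreted ligand of neurexins. Cells over an RPKM of 150 for exactly 1 of these 3 genes formed a class, and cells over it for more than 1 were left out, 26 at P90, of which 21 were over it for both Nxph4 and Gad2. Cells over it for none, 387 of the 1163 Pitx3eGFP/wt cells, were in no class. P90 held 66 Slc6a3-high, 140 Nxph4-high and 57 Gad2-high cells. E18.5, P1 and P7 together held 63 Nxph4-high and 63 Gad2-high cells beside a larger Slc6a3-high class. E13.5 and E15.5 held 62 Slc6a3-high, 59 Nxph4-high and 21 Gad2-high cells. Of these, 25 Slc6a3-high, 37 Nxph4-high and 12 Gad2-high cells were of E13.5, so that class and stage are partly mixed in this set. Median reads per cell at P90 lay between 1793725 and 1842166 in the 3 classes.

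At P90 the Slc6a3-high cells had higher levels of Cdh13, both high type I members, Cdh6, Cdh7, Pcdh8 and Pcdh18 than the Nxph4-high cells. Of 25 members tested, 8 were at least 2-fold higher in Slc6a3-high cells (8.77% of all genes tested) and 2 were lower (15.6%). The median log2 ratio of the members was 0.46, that of all genes -0.15. Cdh13 stood at 244.3 against 73.3, with a median of 188.3 and a highest cell of 925.5 against a median of 58.6 and a highest cell of 407. Its share of positive cells was 75.8% against 80.7%, a difference of -4.96 points (-17.8 to 6.44). Cdh13 was thus at least 2-fold apart in the level, while most cells of both classes were positive. On the mean of log2 RPKM plus 1 its log2 difference was 0.94, under 2-fold.

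The other higher members differed in the share too. Cdh4 stood at 9.94 against 1.63, with 26.1 points more positive cells (14.9 to 38.4), and Cdh2 at 24.7 against 10.06, with 24.8 points more (10.2 to 38.1). Among type II members, Cdh6 stood at 11.03 against 0.987, with 23.7 points more (13.4 to 35.6), and Cdh7 at 13.1 against 4.69, with 18.96 points more (7.03 to 31.8). Only 5 Nxph4-high cells (3.57%) were positive for Cdh6. Pcdh8 stood at 23.5 against 11.05, with 35.95 points more (21.5 to 48.3), and Pcdh18 at 10.3 against 3.25, with 13.6 points more (2.54 to 26.1). These 6 members thus had both a higher level and a larger share of positive cells. The log2 ratio of Pcdh8 was 0.93 with summed CPM. Cdh23, a tip-link cadherin of hair cells, was the eighth, with 2 positive cells in each class, of 66 Slc6a3-high and 140 Nxph4-high cells. Its log2 ratio was 0.72 without plate 4 and 0.82 without plate 5. Pcdh11x (2.41 against 5.21) and Pcdh20 (0 of 66 positive cells, which allows up to 4.55%, against 9 cells) were lower in Slc6a3-high cells, but the log2 ratio of Pcdh11x was -0.66 without plate 1 and -0.67 without plate 4.

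These cells came from 4 plates, each with at least 5 cells of each class. Cdh13, Cdh2, Cdh4, Cdh6, Cdh7, Pcdh8 and Pcdh18 were higher in Slc6a3-high than in Nxph4-high cells on 4 of 4 plates. So were Cdh22, Pcdh7 and Pcdh9, which were under 2-fold apart over all plates. The plates hold the same cells as the 2-fold calls, and no share of all genes is given for the plates. The plate levels of Cdh13 ran from 136.4 to 327.2 in Slc6a3-high and from 69.6 to 78.5 in Nxph4-high cells, and those of Cdh6 from 6.85 to 18.2 and from 0.712 to 1.17, so that neither pair of ranges overlapped. The plate ranges of Cdh4, Cdh2, Pcdh8 and Pcdh18 did not overlap between these classes either, while those of Cdh7 did, and without plate 1 the log2 ratio of Cdh7 was 0.74. Cdh10 was lower in Slc6a3-high cells on 4 of 4 plates, with levels of 20.5 and 31.7 over all plates, under 2-fold apart. Whether plates stand for separate animals is not given in the sources used here.

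**Figure D3:**
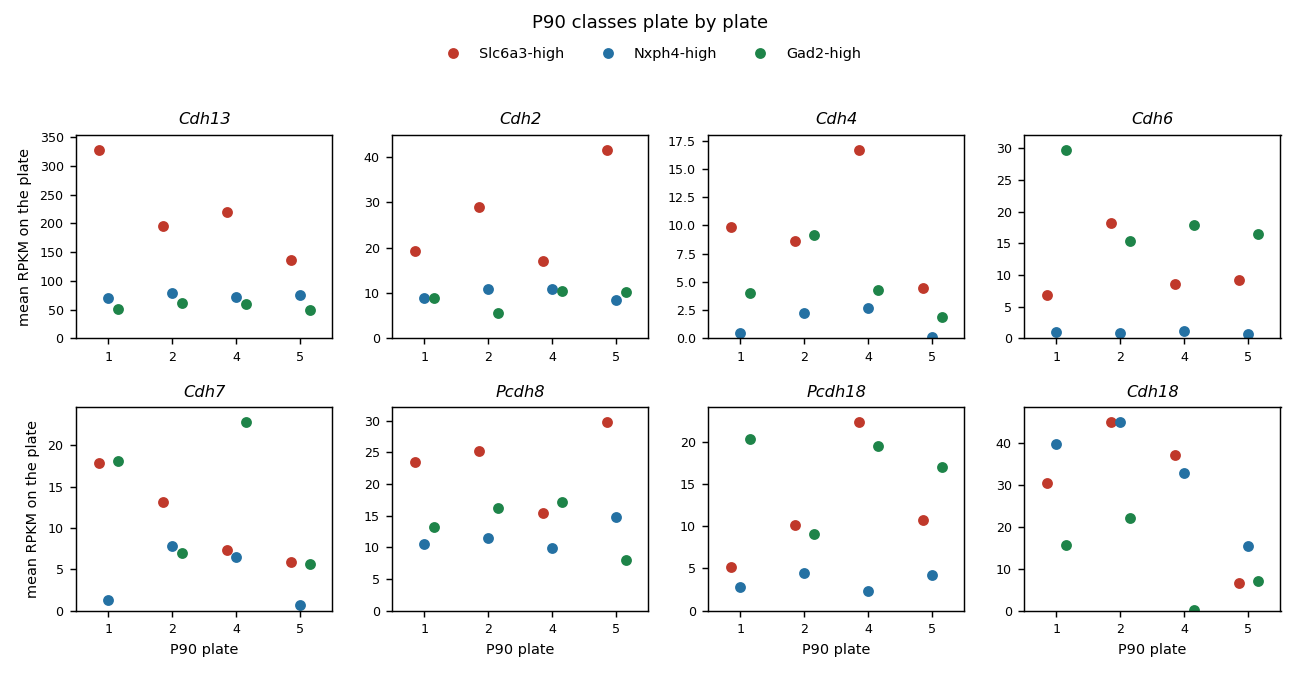
Mean RPKM of 8 members (y axis, from 0) on each of the 4 P90 plates (x axis, plate number as labelled), with 1 point per class and plate. For Cdh13 the Slc6a3-high points lie between 136.4 and 327.2 and the Nxph4-high points between 69.6 and 78.5, while for Cdh18 the ranges of these classes overlap.

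The Gad2-high cells at P90 had Cdh6, Pcdh18, Cdh7, Cdh8 and Pcdh17 at higher levels than Nxph4-high cells and Cdh18 at a lower one. Of these, Cdh6, Cdh7 and Pcdh18 were also at least 2-fold higher in Slc6a3-high than in Nxph4-high cells, and all but Cdh18 were under 2-fold apart between Gad2-high and Slc6a3-high cells. Of 26 members tested, 8 were at least 2-fold higher (8.38% of all genes tested) and 1 was lower (10.8%). The members had a median log2 ratio of 0.33, and all genes tested had -0.03. Cdh6 stood at 19.8 against 0.987, with 35.03 points more positive cells (22.6 to 48.2), and Pcdh18 at 17.4 against 3.25, with 26.5 points more (13.2 to 40.2). Pcdh17 stood at 12.9 against 4.85, with 29.2 points more (15.1 to 43.01), Cdh8 at 41.1 against 20.3, with 22.2 points more (6.87 to 36.2), and Cdh7 at 14.7 against 4.69, with 22.2 points more (9.35 to 35.98). Pcdh7 (7.33 against 2.06), Cdh4 (4.36 against 1.63) and Cdh12 (1.67 against 0.421, with 4 and 3 positive cells) were the others. All but Cdh7 were higher on 4 of 4 plates, and Cdh7 was on 3. Pcdh10, under 2-fold apart, was also higher on 4 of 4 plates, which hold the same cells as the calls. Without plate 4 the log2 ratio of Cdh8 was 0.52. Cdh18 stood at 8.99 against 35.8, a difference of -27.7 points (-38.1 to -14.3).

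Against Slc6a3-high cells, 4 of 27 members were at least 2-fold higher in Gad2-high cells (15.3% of all genes tested) and 5 were lower (10.6%). On the log2 scale the members' median ratio was 0.31, that of all genes 0.10. Cdh13 stood at 55.7 against 244.3, with plate levels from 49.02 to 62.1 against 136.4 to 327.2, and its share of positive cells differed by 10.2 points (-4.07 to 23.6). Its call held under 15 of 16 alternatives. Cdh18 stood at 8.99 against 33.4, a difference of -36.2 points (-49.5 to -20.2), Cdh2 at 9.26 against 24.7, a difference of -27.5 points (-42.8 to -9.86), and Cdh4 at 4.36 against 9.94, a difference of -16.03 points (-30.02 to -0.753). Cdh18 and Cdh4 were each lower on 3 of 4 plates. The call of Cdh4 held under 11 of 16 alternatives, and without plate 4 its log2 ratio was -0.96. Cdh23 had 0 of 57 positive Gad2-high cells, which allows up to 5.26%, and 2 positive Slc6a3-high cells. The higher members were Pcdh15 (9.03 against 4.34), Pcdh20, Cdh12 and Cdh24, the last 3 with 5, 4 and 3 positive cells. Pcdh15 was higher on 3 of 4 plates and at least 2-fold higher under 9 of 16 alternatives, with a log2 ratio of 0.83 without plate 2 and 0.65 without plate 5. The 3 class comparisons at P90 share cells, so that their counts are not independent.

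At E18.5, P1 and P7, 9 of 26 members tested were at least 2-fold higher in Slc6a3-high than in Nxph4-high cells (10.6% of all genes tested) and 4 were lower (13.2%). The members' median log2 ratio was 0.61, that of all genes -0.06. Pcdh8 stood at 74.7 against 17.95, with 42.7 points more positive cells (29.2 to 54.8), and Cdh4 at 32.95 against 7.93, with 39.1 points more (25.7 to 49.5). In E18.5 cells alone the log2 ratio of Cdh4 was 0.68, under 2-fold. Pcdh18 (33.9 against 13.6), Cdh22 (18.03 against 8.64) and Cdh7 (10.8 against 3.97) had 19.4, 28.9 and 18.9 points more positive cells. Their log2 ratios were under 1 in single stages, at 0.26 for Pcdh18 in P7 cells and at 0.72 for Cdh22 and 0.45 for Cdh7 in E18.5 cells. Pcdh7, Cdh15, Cdh23 and Cdh12 were the other higher members, with levels of 1.01 to 4.52. In P7 cells alone the log2 ratio of Cdh15 was -3.60, and with a class threshold of 50 that of Cdh12 was -0.61. Cdh13, at 250.7 against 170.4, was under 2-fold apart. At least 3 of 7 astrocyte and radial glia markers were over an RPKM of 10 in 7 Slc6a3-high, 5 Nxph4-high and 4 Gad2-high cells, and their summed RPKM averaged 96.7, 353.4 and 470.5 (lowest 0 in each, highest 6250, 5777 and 11931). The summed RPKM of 6 microglia markers averaged 212.5, 0.419 and 0.288, and 2 Slc6a3-high cells had at least 3 of them. With the non-neuronal cells of all lists left out, 8 members were at least 2-fold higher and 4 lower, 11 of these as before. No share of all genes is given for that set.

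The members lower in the perinatal Slc6a3-high cells were the type II cadherins Cdh10, Cdh18 and Cdh20, and Pcdh17. Cdh18 stood at 21.8 in Slc6a3-high, 66.7 in Nxph4-high and 6.43 in Gad2-high cells, with 26.2%, 61.9% and 12.7% positive cells. Cdh10 stood at 16.5, 54.4 and 45.7 in the same order, with 30.6%, 58.7% and 50.8%. Pcdh17 stood at 10.2, 26.99 and 12.9, and Slc6a3-high and Nxph4-high cells differed by -38.5 points (-50.4 to -24.6), although in E18.5 cells alone its log2 ratio was -0.60. Cdh10 and Cdh18 were lower in Slc6a3-high cells on both plates at E18.5 and in both sets of cells at P1, those on a plate with spike-in RNA and those with no plate in the title. Cdh20 rests on 5 positive cells in each class, and in P7 cells alone its log2 ratio was 0.57. Cdh11 had its highest level in perinatal Nxph4-high cells, 77.8, of which 90.5% (80.4 to 96.4%) were positive, and Pcdh9 had its highest level there too, 47.3.

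Cdh6 and Cdh8 had their highest levels in perinatal Gad2-high cells. Cdh6 stood at 102.3 in Gad2-high, 15.4 in Slc6a3-high and 13.6 in Nxph4-high cells, and in Gad2-high cells its level ran from 109.8 (E18.5) over 102.3 (P1) to 82.02 (P7). Cdh10, its closest relative by sequence, was thus at a high level in both Nxph4-high and Gad2-high cells, and Cdh6 in Gad2-high cells. Cdh8 stood at 82.8, 59.6 and 33.4 in Gad2-high, Slc6a3-high and Nxph4-high cells, with 66.7%, 56.8% and 57.1% positive cells.

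**Figure D4:**
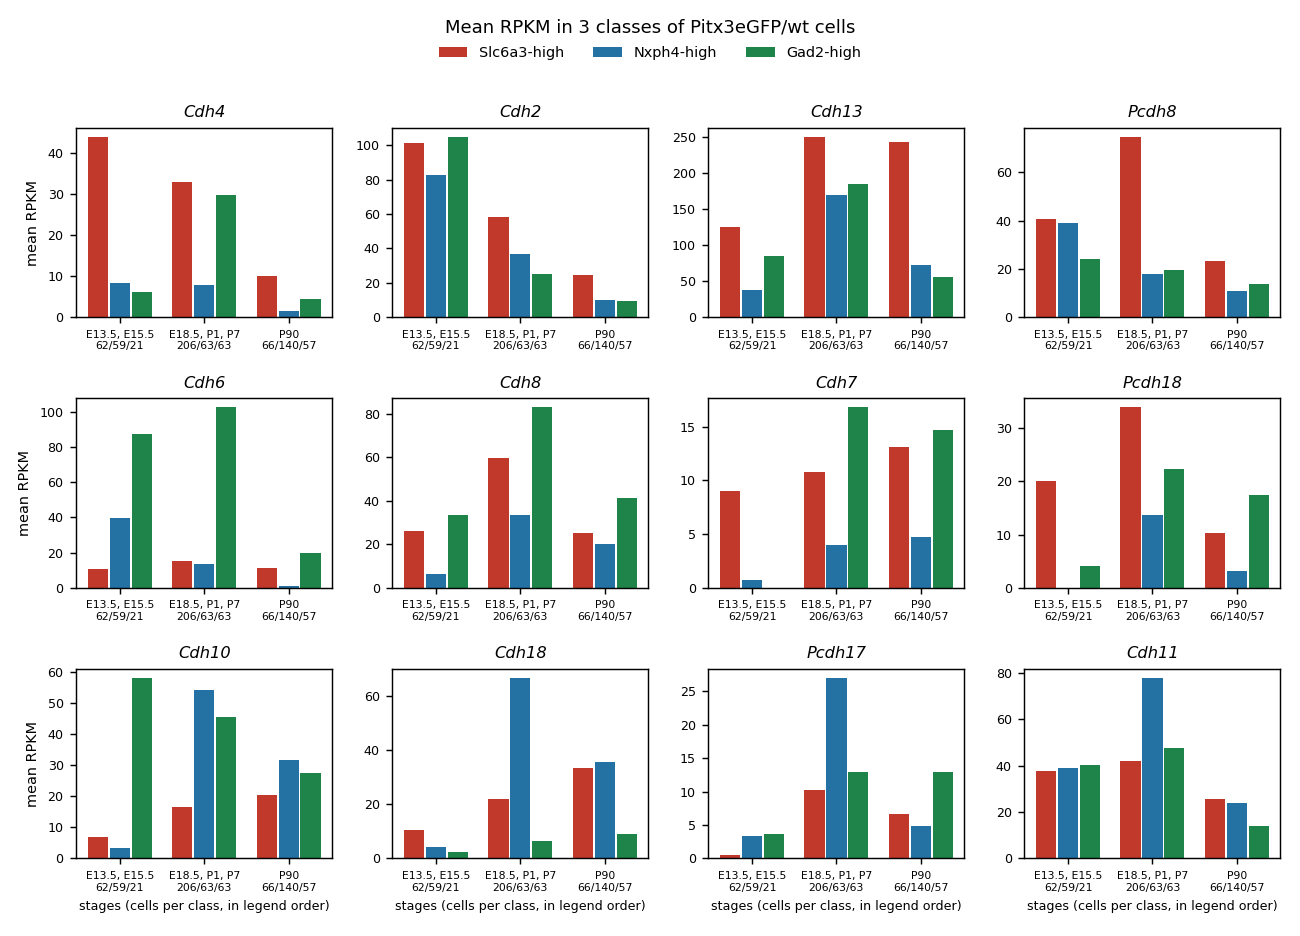
Mean RPKM over cells (y axes, from 0, differing between genes) of 12 members in Slc6a3-high, Nxph4-high and Gad2-high Pitx3eGFP/wt cells, at E13.5 and E15.5, at E18.5, P1 and P7, and at P90, with the number of cells of each class under the bars. Bars have no error, as each class is 1 sample. Cdh4 is highest in Slc6a3-high cells and Cdh6 in Gad2-high cells at all 3 sets of stages, while Cdh18 is highest in Slc6a3-high cells early (10.4) and in Nxph4-high cells perinatally (66.7).

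At E13.5 and E15.5, 11 of 24 members tested were at least 2-fold higher in Slc6a3-high than in Nxph4-high cells (17.1% of all genes tested) and 3 were lower (14.6%). The members had a median log2 ratio of 0.65, and all genes tested had 0.00452. Cdh13 stood at 125.7 against 37.4, with 46.7 points more positive cells (29.6 to 60.1) and a log2 ratio of 0.96 in E13.5 cells alone, Cdh4 at 43.8 against 8.26, with 42.97 points more (26.7 to 56.2), and Cdh22 at 22.8 against 3.53, with 32.1 points more (18.6 to 44.8). Pcdh18 stood at 20.07, with 12 positive cells, against 0.0134, with 0 of 59, which allows up to 5.08%. Cdh8 (25.9 against 6.20) and Cdh7 (9.06 against 0.737) were higher as well. Pcdh7, Cdh10, Cdh18, Cdh15 and Cdh26 were higher on 2 to 9 positive Slc6a3-high cells, the log2 ratio of Cdh10 was 0.01 with a class threshold of 50 and that of Cdh18 0.31 in E15.5 cells alone, and Cdh15 and Cdh26 were listed at 0 in all 25 such cells of E13.5. Among the lower members, Cdh6 stood at 10.7 against 39.4, a difference of -29.4 points (-43.3 to -13.9), and Pcdh9 at 6.31 against 22.6, a difference of -19.1 points (-32.7 to -5.10). Pcdh17 was the other, positive in 1 and 4 cells, and in E13.5 cells alone its log2 ratio was 1.63. In the 21 Gad2-high cells, Cdh10 stood at 58.2, Pcdh15 at 22.9 and Pcdh7 at 10.7, the highest level of each in any stage, genotype or class of kept cells.

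Cdh4, Cdh7 and Pcdh18 were at least 2-fold higher in Slc6a3-high than in Nxph4-high cells at the early, perinatal and adult stages, which hold different cells, though not in each single stage of the perinatal set. Cdh6, Cdh10 and Cdh18 were at least 2-fold apart in opposite directions at different stages. The early calls of Cdh10 and Cdh18 each held under 10 of 14 alternatives, and that of Cdh6 under 14 of 14.

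Among the adhesion partners, Ctnna1 (alpha-E-catenin, which links cadherins to actin) was higher in Slc6a3-high cells at the same 3 sets of stages. It stood at 77.1 in early, 53.7 in perinatal and 49.6 in adult Slc6a3-high cells, and at 11.5, 6.67 and 16.7 in Nxph4-high cells. Nectin3 was lower in Slc6a3-high cells at all 3 sets, at 1.68 against 6.47 at P90. Adam10 (23.9 against 11.1) was higher at P90, and in early cells Jup (219.6 against 81.6) was higher and Vcl (0.404 against 3.97) lower. Of 9 atypical cadherins tested, 1 was higher in Slc6a3-high cells at P90 (Clstn2, 18.5 against 4.64) and 2 were lower (Fat1 and Dchs1). Fat1 was the member of that list at least 2-fold apart at the other 2 sets, at 1.06 against 11.99 perinatally. Among the protocadherin partners 0 of 8 were at least 2-fold apart between these classes at P90, where 8.77% of all genes tested were higher and 15.6% lower. Cyfip1 was higher perinatally (20.9 against 10.4) and Cyfip2 lower in early cells (51.9 against 104.5).

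Pitx3eGFP/eGFP cells were compared with Pitx3eGFP/wt cells of the same stage to see what differs without Pitx3. At E13.5, 4 of 23 members tested were at least 2-fold higher (7.87% of all genes tested) and 1 was lower (8.91%), each with a level under 5. On the log2 scale the members' median ratio was 0.21, that of all genes -0.04. Pcdh19 stood at 2.02 against 0.277, with 11 against 1 positive cells, and Pcdh17 at 2.72 against 0.803, with 14 against 3. Pcdh11x (2.17 against 0.233, 6 and 1 cells), Cdh18 (3.20 against 1.23, 7 and 2 cells) and Pcdh1 (lower, 1.82 against 4.46, 11 and 12 cells) were the others. On the mean of log2 RPKM plus 1 none of the 5 was at least 2-fold apart. The plate levels of Pcdh11x ran from 0.0477 to 11.8 in Pitx3eGFP/eGFP cells, and with detection counted over all gene entries its log2 ratio was -0.71. Spike-in RNA and plates follow genotype at E13.5, and plates follow it at P1, so that neither can be told apart from genotype. Depth differed as well at E13.5, with a median of 753256 reads in Pitx3eGFP/eGFP and 2354720 in Pitx3eGFP/wt cells.

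At P1, 1 of 27 members tested was at least 2-fold higher in Pitx3eGFP/eGFP cells (15.4% of all genes tested) and 1 was lower (5.2%). The members' median log2 ratio was 0.06, that of all genes 0.10. Cdh20 stood at 4.72 against 1.95, with 18 against 4 positive cells, and Cdh3, the lower member, rests on 1 positive Pitx3eGFP/wt cell. Among cells with Slc6a3 at or under 150 the log2 ratio of Cdh20 was 0.07, and without Pitx3eGFP/eGFP plate 1 it was 0.54. At least 3 of 7 astrocyte and radial glia markers were over an RPKM of 10 in 29 Pitx3eGFP/eGFP and 2 Pitx3eGFP/wt cells, and their summed RPKM ran from 0 to 22790 and from 0 to 1187. At least 3 of 6 microglia markers were over it in 8 and 0 cells, and all 6 were at 0 in the Pitx3eGFP/wt cells. With the cells of these and the other non-neuronal lists left out, the log2 ratio of Cdh20 was 0.66.

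Below 2-fold, Cdh6 had a higher level and more positive cells in Pitx3eGFP/eGFP cells at both stages. It stood at 36.4 against 19.9 at E13.5, with 14.1 points more (3.75 to 23.8), and at 53.7 against 29.8 at P1, with 27.96 points more (15.9 to 38.3). Cdh10 had more positive cells at both, by 14.7 points (6.06 to 22.9) at E13.5 and 14.2 points (1.68 to 25.98) at P1. At P1 Pcdh18 stood at 11.1 against 22.04, a difference of -15.9 points (-27.7 to -4.04), and Cdh11 at 37.1 against 55.5, a difference of -18.3 points (-29.5 to -5.85). At E13.5, 1 Pitx3eGFP/eGFP cell and 25 Pitx3eGFP/wt cells were Slc6a3-high, and at P1 16 Pitx3eGFP/eGFP cells were. Among P1 cells with Slc6a3 at or under 150, which held 41 of the 94 Pitx3eGFP/wt cells, Pcdh18 stood at 11.3 against 9.76 and Cdh6 at 54.5 against 37.7. The difference of Pcdh18 was thus in the other direction among these cells, while that of Cdh6 was in the same one. Of the Pitx3eGFP/eGFP cells at or under 150, 27 had at least 3 of 7 astrocyte and radial glia markers over an RPKM of 10. At least 3 of 6 microglia markers were over it in 8 of them. None of the 41 Pitx3eGFP/wt cells met either rule. The part of such cells, and of Gad2-high cells, in these levels of Cdh6 and Pcdh18 was not tested. Ctnna1 stood at 15.9 against 49.1 at E13.5 and 13.5 against 33.5 at P1, the member of the adhesion partners at least 2-fold lower at both stages. At E18.5, P1 and P7 Ctnna1 stood at 53.7 in Slc6a3-high and 6.67 in Nxph4-high Pitx3eGFP/wt cells. The part of the smaller number of Slc6a3-high Pitx3eGFP/eGFP cells in the differences of Ctnna1, Cdh10 and Cdh11 was not tested. Nectin3 was higher at E13.5 (4.46 against 1.55). Of the atypical cadherins tested, Fat1 of 9 was higher at E13.5 (1.75 against 0.724, with 7.87% of all genes tested higher), and 4 of 10 were higher at P1 (15.4%), namely Fat1 (6.29 against 2.13), Fat3 (2.87 against 0.648), Fat4 (8.34 against 2.50) and Celsr1 (1.17 against 0.248). None was lower at either stage. The part of the P1 cells with astrocyte and radial glia markers in these levels was not tested. Of 8 protocadherin partners, Cyfip1 was higher at P1 (22.4 against 8.92).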

How the data were processed

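The deposited files hold, for each cell and gene, a read count, which the authors did not normalize, and an RPKM value, which the authors computed per gene length and reads of the cell. Per the submitters' processing notes, reads were aligned to mm10 with STAR. Cells with more than 100000 reads and reads in at least 15% (3.4% at P90) of the 31526 genes that had any were kept (1649 of 1699), and 138 with at least 3 oligodendrocyte-lineage markers over an RPKM of 10 were left out. No doublet caller was run. Each stage and genotype was 1 sample, so values are means and shares without tests. Alternatives are in the closing section. Members with a group mean RPKM of at least 10, and up to 6 per direction in each comparison, were to be named with values; the others at least 2-fold apart were named after their values were seen. The members and lists were chosen with earlier results of these data known. Strand is not stated for the counting, so Cdh8, Cdh9, Pcdh7, Pcdh8, Pcdh10 and Pcdh19 cannot be separated from an overlapping antisense gene, nor Cdh12 from Gm49685. The code for the 2-fold calls was checked on simulated reads, which is no test of these data. Scripts used Python 3.11.15, numpy 2.4.6, scipy 1.17.1 and Biopython 1.88.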

Additional observations from a re-analysis of the deposited data

Results flagged for a closer look

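Cdh6, Cdh10 and Cdh18 were at least 2-fold apart between Slc6a3-high and Nxph4-high cells in opposite directions at different stages. The differences between stages were not tested. The log2 ratio of Cdh6 was -1.89 at E13.5 and E15.5 and 3.48 at P90. That of Cdh10 was 1.06 at E13.5 and E15.5 and -1.73 at E18.5, P1 and P7, and that of Cdh18 was 1.26 and -1.61. The early ratios of Cdh10 and Cdh18 rest on 7 and 3 and on 6 and 2 positive cells, while 24 of 59 early Nxph4-high cells were positive for Cdh6. The early calls of Cdh10 and Cdh18 each held under 10 of 14 alternatives. Class and stage are partly mixed in these early cells, and the part of stage in the ratios was not tested.

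Signal lay in cells that the comparisons did not use. In the Pitx3eGFP/wt cells with oligodendrocyte-lineage markers left out at P1 and P7, Pcdh15 had a mean RPKM of 50.9, against 10.8 in the kept cells of these stages, Pcdh11x 24.4 against 3.96 and Cdh20 13.7 against 3.26. The positive cells were 29.4% (21.02 to 38.8%) for Pcdh15, 34.9% (25.99 to 44.6%) for Pcdh11x and 27.5% (19.4 to 36.9%) for Cdh20, and 20.3%, 9.35% and 8.57% of the kept cells. Most of the cells left out (83) also had at least 3 of 7 astrocyte and radial glia markers over an RPKM of 10. Only a minority of the kept cells (64), which were more numerous, did. The summed RPKM of these markers averaged 8070 in the cells left out and 1608 in the kept cells. The part of the cells with these markers in the levels was not tested.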

How the results depend on the processing

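Of 86 pairs of a member and a comparison at least 2-fold apart, 3 had a level of 0 in 1 group and no ratio, and for 20 beyond the largest 6 per direction the alternatives were chosen after seeing the data. Of the other 83, 32 were at least 2-fold apart in the same direction under every alternative run for them. Over 1174 values, 1068 stayed at least 2-fold in the same direction, 5 changed sign and the rest fell below it. Those that changed sign were Pcdh11x between genotypes at E13.5 (-0.71, detection over all entries), Cdh15 (-3.60) and Cdh20 (0.57) in P7 cells alone, Cdh12 (-0.61, class threshold of 50) and Pcdh17 in E13.5 cells alone (1.63). The cause was not tested.

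The number of members at least 2-fold apart moved as follows, and no share of all genes is given under these settings. From E18.5 to P1 (1) it was 2 with summed CPM, 4 with no floor, 0 with a floor of 5, 4 with all P1 cells and 2 when either E18.5 plate was left out. At P90 against P1 (11) it was 7 with mean log2 RPKM and 7 with a floor of 5. For genotype at E13.5 (5) it was 3 in thinned cells, 0 with mean log2 RPKM, 14 with no floor and 0 with a floor of 5. For genotype at P1 (2) it was 4 with summed CPM, 1 with mean log2 RPKM, 9 with no floor, 0 with a floor of 5, 5 with oligodendrocyte-lineage cells kept, 4 with other non-neuronal cells left out too, 1 with only cells at a low Slc6a3 level, and 3 to 5 when a Pitx3eGFP/eGFP plate was left out (5 without plate 2). Between Slc6a3-high and Nxph4-high cells it was 5 with mean log2 RPKM and 17 with no floor at P90 (10), 8 with a floor of 5 perinatally (13) and 7 with mean log2 RPKM at the early stages (14). Between Gad2-high and Nxph4-high cells (9) it was 16 with no floor, and between Gad2-high and Slc6a3-high cells (9) it was 4 with mean log2 RPKM and 5 with a floor of 5. The median number of members per cell over an RPKM of 50 in place of 10 was 3 (5) for both E13.5 and E15.5, 4 (8) for both E18.5 and P1, 3 (7) for P7 and 2 (7) for P90. Leaving out a plate could not be computed where it left a group with fewer than 5 cells. No paired analysis was possible by replicate number because these numbers only name cells; plates pair the P90 classes, and the levels within each plate are given in the report. Members with means near 1 rest on few positive cells, and 100000 reads is the least depth of a kept cell.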
